A study of Homo sapiens with 4 samples.

Results

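Vault RNAs are short non-coding RNAs made by RNA polymerase III. They were found as the RNA part of the vault, a large ribonucleoprotein particle built mainly of the major vault protein, although most vault RNA in a cell is not bound to vaults. VTRNA1-1, VTRNA1-2 and VTRNA1-3 form a gene cluster, VTRNA1-1 is known to bind the autophagy receptor p62, and VTRNA2-1, also called nc886, binds the kinase PKR. Vault RNAs can be cut into small vault RNAs that resemble miRNAs, and vault RNAs and their fragments are known cargo of extracellular vesicles.

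The vault RNAs described here are all features that the deposited annotation types as vault RNA, 9 of the 155642 features in the count table. They were measured in small RNA of small extracellular vesicles, membrane-bound particles shed by cells, from HT29, a widely used human colon cancer cell line known to carry a mutant p53. A pair of libraries came from HT29 cells with a non-targeting shRNA (labelled ntsh or NTSH, called control here) and another pair from HT29 cells with an shRNA against p53, the tumour suppressor and transcription factor (labelled Shp53, called p53 shRNA here). Cells of both groups were at passages 5 to 15, RNA was purified from the vesicles on columns, and cDNA was selected for inserts of 18 to 40 nt. All vault RNAs are longer than 40 nt, so what was counted were pieces of them, and the amount of a piece can differ from that of the intact RNA. The labels do not state if libraries within a group came from separate cultures or if the shRNA cells were clones, so a p-value here speaks of the spread among 4 libraries, and that spread may be technical. Fewer vesicles that carry an RNA and less of that RNA per vesicle cannot be told apart. The level of p53 itself was not analysed here.

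Counts totalled between 938754 and 2611032 per library, with the p53 shRNA libraries deeper than the controls. The cell type could not be checked in these counts. Of 9 intestinal and epithelial miRNA hairpins, 4 had bases of their own and 2 (MIR141 and MIR200C) had any count, with 0 to 2 counts per library over the list, and the 5 blood, 5 stromal and 1 liver hairpins listed all had 0, but of these only 1 blood and 1 stromal hairpin had bases of their own.

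The 4 human vault RNA genes are shown because the letters they share decide what an 18-nt read can tell about them. The sequences are the GENCODE 29 transcripts (GRCh38), 5′ to 3′. Capitals mark bases that lie in a stretch of at least 18 bases found without a mismatch in another vault RNA gene or in the pseudogene VTRNA3-1P.
VTRNA1-1: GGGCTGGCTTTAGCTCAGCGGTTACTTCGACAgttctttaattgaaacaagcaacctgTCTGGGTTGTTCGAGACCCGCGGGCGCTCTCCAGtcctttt
VTRNA1-2: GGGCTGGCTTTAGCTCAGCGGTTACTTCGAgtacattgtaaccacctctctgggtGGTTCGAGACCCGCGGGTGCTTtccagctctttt
VTRNA1-3: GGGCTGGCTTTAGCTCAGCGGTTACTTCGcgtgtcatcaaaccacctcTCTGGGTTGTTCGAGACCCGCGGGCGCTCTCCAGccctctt
VTRNA2-1: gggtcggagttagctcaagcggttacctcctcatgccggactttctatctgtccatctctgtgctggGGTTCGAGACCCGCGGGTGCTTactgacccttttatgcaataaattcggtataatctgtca
The 3 VTRNA1 genes open with the same 29 bases, and VTRNA1-1 and VTRNA1-2 share 30. VTRNA1-2 and VTRNA1-3 matched at 79 of 90 alignment columns (87.8%), VTRNA1-1 and VTRNA1-2 at 81.8%, and VTRNA1-1 and VTRNA1-3 at 82.8%. The 3′ parts pair the genes differently. VTRNA1-1 and VTRNA1-3 have a common run of 34 bases there, while VTRNA1-2 has a run of 22 bases in common with VTRNA2-1. Over their whole lengths VTRNA1-2 and VTRNA2-1 matched at 57.8% of alignment columns, with VTRNA2-1 the longer at 128 bases. Against the shorter annotated form of VTRNA2-1, of 101 bases, the value was 70.3%.

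Of the 72 windows of 18 bases in VTRNA1-2, 18 (25.0%) also occur in another vault RNA gene, and in VTRNA1-3 29 of 72 do (40.3%). VTRNA1-2 and VTRNA1-3 have 12 windows in common, all at the 5′ end. None of the shared windows of VTRNA1-2 or VTRNA1-3 occurs in a GENCODE transcript of a gene that is not a vault RNA gene (0 windows each). For reads that match several loci, the placing used is not given in these sources. Counts from the shared stretches at either end could thus have been split between genes or lost, and the single genes are uncertain to that extent. At the 5′ end the sharing is among the genes of the cluster and the pseudogene VTRNA3-1P. In the 3′ part, reads of VTRNA1-1 could have been counted at VTRNA1-3 and reads of VTRNA2-1 at VTRNA1-2. By the counting pattern described below, reads of VTRNA1-3 placed at VTRNA1-1, or of VTRNA1-2 at VTRNA2-1, would be missing from the counts. An 18-base window that holds any lower-case base above occurs in only 1 of these genes.

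**Figure D1:**
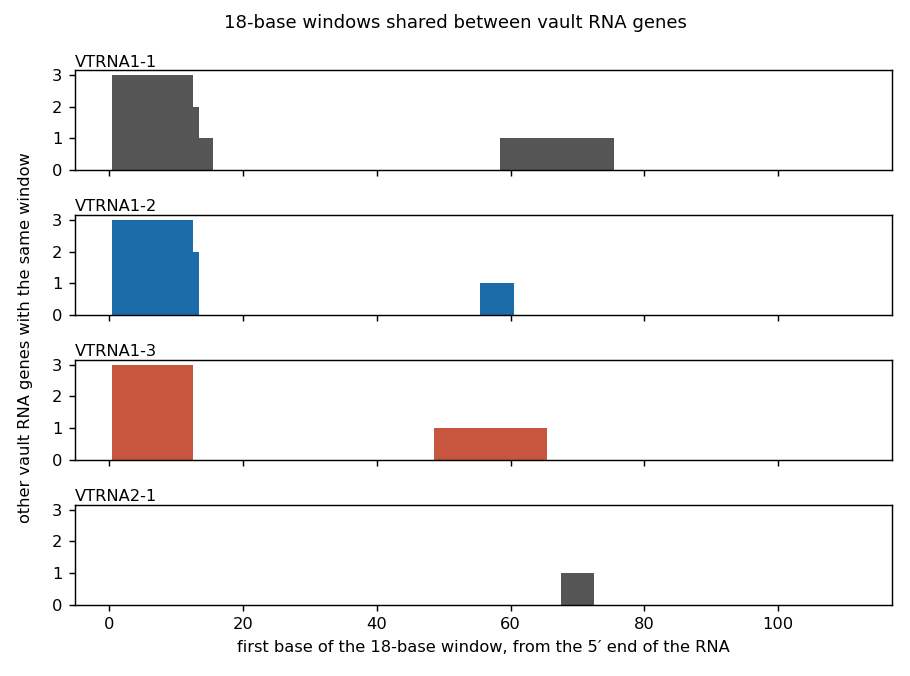
Each bar is the number of other vault RNA genes (VTRNA1-1, VTRNA1-2, VTRNA1-3, VTRNA2-1 and VTRNA3-1P) that hold the same 18-base window, by the window's first base from the 5′ end of the RNA. The shared windows lie at the 5′ ends of the VTRNA1 genes and in a second block in the 3′ part, where VTRNA1-2 shares with 1 gene.

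RNA polymerase III reads vault genes from promoter elements inside the gene. The letters GTTCGANNC, the core of the box B element, were found once in each of the 4 genes, at base 57 of VTRNA1-2 and VTRNA1-3, base 67 of VTRNA1-1 and base 69 of VTRNA2-1, and TAGCTCA, part of box A, began at base 11 in all 4. Both strands were searched, the 2 motifs do not overlap, and of 4844 GENCODE transcripts of 80 to 130 bases 0.289% hold the first and 0.846% the second. The feature copies in NLK and RAD51D hold neither, and the copy in INO80D holds TAGCTCA alone. These matches are a description of the letters.

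Of the 9 features, 3 had any count: VTRNA1-2 with 29027 counts over the 4 libraries, VTRNA1-3 with 9464, and a feature over GRIN3A with 74. What a 0 means differed between the other members, because the counts have the pattern of a method that leaves out reads on more than 1 annotated feature and does not use strand. In the whole table, 0 of the 66527 features without bases of their own (bases covered by no other feature, strand ignored) had a count, against 51.7% of the 89115 features with such bases.

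VTRNA1-1 (chromosome 5, 140711275 to 140711373, GRCh38, plus strand) is the first gene of the cluster. It had 0 counts in every library, but all 99 of its bases lie under a lncRNA feature on the opposite strand, so that it had 0 bases of its own and its level could not be measured. That lncRNA feature had 204 bases of its own. Its counts were 7 and 4 in the control libraries and 22 and 1 in the p53 shRNA libraries. VTRNA2-1 (chromosome 5, 136080470 to 136080597, minus strand) was annotated as nested features of 128 and 101 bases. The shorter had 0 bases of its own. The longer had 27, beyond the end of the shorter, with room for 10 windows of 18 bases, and 0 counts. Neither RNA can be called absent from the vesicles on these counts.

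The remaining 3 members at 0 could be counted. They are copies that GENCODE names by the vault RNA family alone, with all their bases their own. The copy of 95 bases on chromosome 2 (206007880 to 206007974) lies in an intron of INO80D. That of 102 bases on chromosome 17 (28061967 to 28062068) lies in an intron of NLK. That of 98 bases on chromosome 17 (35097560 to 35097657) lies in an exon of a RAD51D transcript. The 3 copies share 0 windows of 18 bases with the 4 genes. A count of 0 allows shares of up to 0.000320% in the shallowest library and 0.000115% in the deepest (3 counts of the total, counting error only). Such zeros were common: of 1327 features of 80 to 130 bases with all bases their own, 61.5% had no count in any library.

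**Figure D2:**
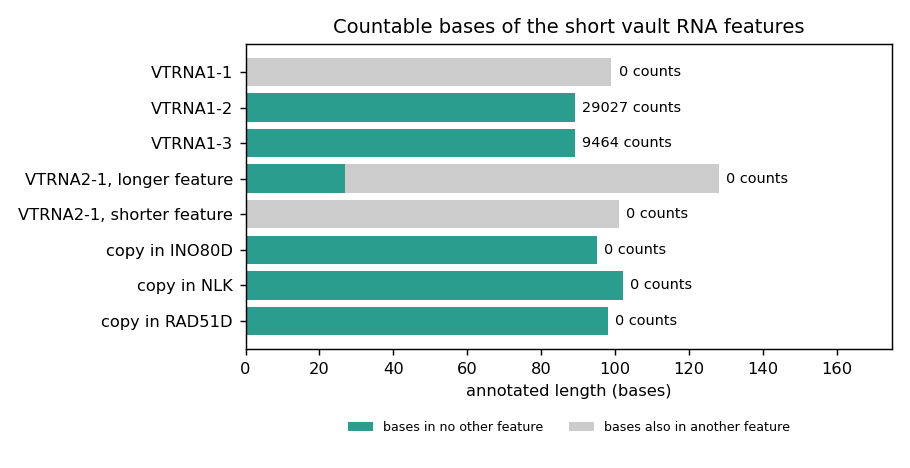
Bars give the annotated length of the 8 vault RNA features with 1 interval, divided into bases that no other feature covers and bases that another feature also covers, with the counts summed over the 4 libraries beside each bar. VTRNA1-1 and the shorter VTRNA2-1 feature have no bases of their own, and of these 8 only VTRNA1-2 (29027) and VTRNA1-3 (9464) had counts.

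The GRIN3A feature is typed as vault RNA but goes against that label. It has 9 intervals and 7770 bases on chromosome 9 between 101569353 and 101738580, the bounds of GRIN3A, a glutamate receptor subunit gene, and it is described here as the GRIN3A feature. The controls held 12 and 10 of its counts and the p53 shRNA libraries 30 and 22. These are shares of 0.00109% and 0.00107% of all control counts, against 0.00115% and 0.00113% of all p53 shRNA counts. Both p53 shRNA shares were above both control shares (two-sided exact permutation p = 0.33, the smallest that 2 against 2 allows). All 4 of the 95% Wilson intervals of these shares overlap, so the differences between libraries were within counting error. As shares of counts outside ribosomal gene positions the groups overlapped.

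VTRNA1-2 (chromosome 5, 140718925 to 140719013, plus strand, 89 bases) lies between genes, 12249 bases from ZMAT2 and 67123 bases from PCDHA1. Control replicate 1 held 12668 of its counts and control replicate 2 held 7492, against 7117 in p53 shRNA replicate 1 and 1750 in p53 shRNA replicate 2. Both controls were above both p53 shRNA libraries once depth was taken into account: the controls gave VTRNA1-2 1.15% and 0.798% of their counts, and the p53 shRNA libraries 0.273% and 0.0902%. The Wilson interval was 1.13% to 1.17% in the highest library and 0.0860% to 0.0945% in the lowest, so that counting error was small beside the spread within a group. The group means of 0.975% ± 0.250 and 0.181% ± 0.129 (SD, n = 2) differed 5.38-fold. Single libraries moved this fold, to 10.8 without p53 shRNA replicate 1 and 3.58 without p53 shRNA replicate 2. The two-sided exact permutation test gave p = 0.33, the smallest that 2 against 2 allows.

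VTRNA1-3 (chromosome 5, 140726158 to 140726246, plus strand, 89 bases) is the last gene of the cluster. The controls held 1753 and 297 of its counts and the p53 shRNA libraries 6371 and 1043. As shares of all counts these were 0.159% and 0.0316% for the control libraries, against 0.244% and 0.0537% for the p53 shRNA libraries. The groups overlapped, and replicate 1 of each group was above replicate 2 of both. The means of 0.0955% ± 0.0903 and 0.149% ± 0.135 (SD, n = 2) differed by less than the spread within a group (exact permutation p = 0.667). The difference of 0.0533 percentage points turned to -0.0105 without control replicate 2 and to -0.0418 without p53 shRNA replicate 1.

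**Figure D3:**
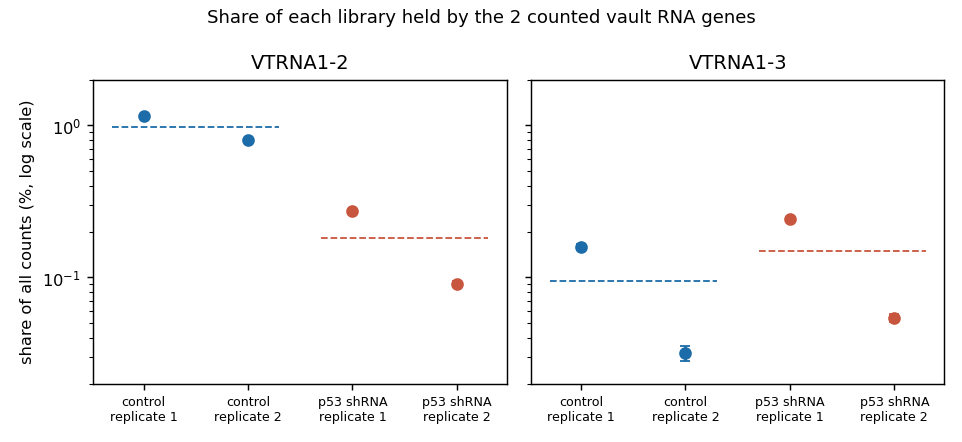
Points give the share of all counts (%, log scale) of VTRNA1-2 and VTRNA1-3 in each library with its 95% Wilson interval, and dashed lines give the mean of each group of 2. For VTRNA1-2 the controls (1.15% and 0.798%) are above the p53 shRNA libraries (0.273% and 0.0902%), while for VTRNA1-3 the groups overlap.

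The groups also differed in the make-up of the vault RNA counts, a measure that needs no scaling between libraries. It covers only the genes that could be counted. Reads of VTRNA1-1 placed at VTRNA1-3, or of VTRNA2-1 at VTRNA1-2, would enter it. VTRNA1-2 and VTRNA1-3, which have equal length, together held between 99.2% and 99.9% of vault RNA counts in every library. In the controls VTRNA1-2 was 87.8% (Wilson interval 87.3% to 88.4%) and 96.2% (95.7% to 96.6%) of the pair, 7.23 and 25.2 counts for each count of VTRNA1-3. With p53 shRNA it was 52.8% (51.9% to 53.6%) and 62.7% (60.8% to 64.4%), ratios of 1.12 and 1.68. VTRNA1-2 was the more abundant of the pair in all 4 libraries, by a wide margin in both controls and a narrow one in both p53 shRNA libraries.

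The log2 ratio of VTRNA1-2 to VTRNA1-3 was 2.85 and 4.66 in the control libraries, against 0.16 and 0.75 in the p53 shRNA libraries. The group means of 3.76 ± 1.28 and 0.45 ± 0.41 (SD, n = 2) differed by -3.30 (SE 0.95), with no overlap (two-sided exact permutation p = 0.33, the smallest possible). With any 1 library left out this difference ran from -4.20 (without control replicate 1) to -2.40 (without control replicate 2). Its sign could not change, because the groups do not overlap. How often the ratios of other pairs of features separate the groups was not tested. Per annotated base VTRNA1-2 was between 6945-fold and 92163-fold above the GRIN3A feature, and VTRNA1-3 between 2593-fold and 18540-fold. The GRIN3A feature is much longer, and with no length correction the counts were 79.5-fold to 1056-fold and 29.7-fold to 212-fold above its own. Ratios of these 3 features to each other were the 3 pairs compared.

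**Figure D4:**
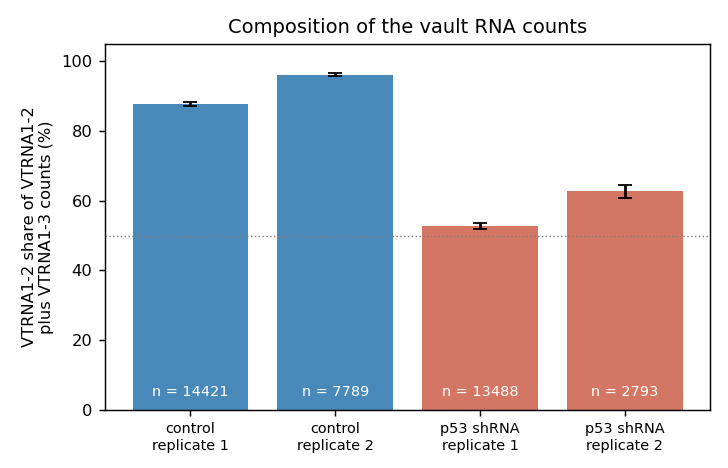
Bars give the percentage of VTRNA1-2 among the summed counts of VTRNA1-2 and VTRNA1-3 in each library (axis from 0), error bars the 95% Wilson interval, n the summed count, and the dotted line equal counts. The controls stand at 87.8% and 96.2% and the p53 shRNA libraries at 52.8% and 62.7%.

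In the test over the whole table, edgeR's quasi-likelihood test with TMM-normalized counts, 2780 features passed the filter on low counts and 3 of these were vault RNA features. In CPM (counts normalized to the same library size), VTRNA1-2 stood at 18686 and 7421 for the control libraries and at 2543 and 750.4 for the p53 shRNA libraries. It ranked 8 of 2780 by mean CPM and VTRNA1-3 ranked 34. TMM scaling widened the gap between the controls, since the factor of control replicate 1 was 0.637 and that of control replicate 2 was 1.12. The log2 change of VTRNA1-2 was -2.99 (SE 1.1), with an adjusted p of 0.261 in edgeR's quasi-likelihood test.

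By edgeR's adjusted p under 0.05, 0 of the 3 vault RNA features were called, as were 0% of all features tested (0 of 2780, with 121 higher and 217 lower at an unadjusted p under 0.05). The DESeq2 Wald test called 29 features, and VTRNA1-2 was not among them (adjusted p = 0.119). At that unadjusted threshold 1 of the 3, VTRNA1-2, was lower, against 7.81% of all features. The CPM groups did not overlap and were lower with p53 shRNA for the same 1 of 3, against 18.6% of all features. The median log2 change of the 3 was -0.43, which is the value of the GRIN3A feature, and that of all features 0.05. The vault RNA genes themselves stood at -2.99 (VTRNA1-2) and -0.08 (VTRNA1-3). Of the tested features, 2557 were lncRNA-typed, with a median of 0.10. Features typed as Y RNA (61 tested), snRNA (18) and snoRNA (116) had medians of -2.30, -1.20 and -0.98. Those typed as rRNA (8) and SRP RNA (2) were above 0, at 0.44 and 0.90. A median below that of all features was thus not particular to the features typed as vault RNA, where it rests on the GRIN3A feature. VTRNA1-2 stayed below 0 in all 11 alternatives, but its size depended on single libraries: it was -3.96 without p53 shRNA replicate 1 and -2.06 without p53 shRNA replicate 2.

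VTRNA1-3 stood at 2586 and 294.2 CPM for the control libraries and at 2276 and 447.2 CPM for the p53 shRNA libraries, a log2 change of -0.08 (SE 1.96, edgeR adjusted p = 0.991). Each group thus held 1 library high and 1 low in VTRNA1-3. With a library left out its change ran from -1.49 (without p53 shRNA replicate 1) to 2.03 (without control replicate 1), and it was 0.66 on library totals, a scaling that moved the median of all features from 0.05 to 0.49. The GRIN3A feature stood at 17.7 and 9.91 CPM for the control libraries and at 10.7 and 9.43 CPM for the p53 shRNA libraries (log2 change -0.43, SE 0.39, edgeR adjusted p = 0.896), and its change was 0.10 on library totals.

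**Figure D5:**
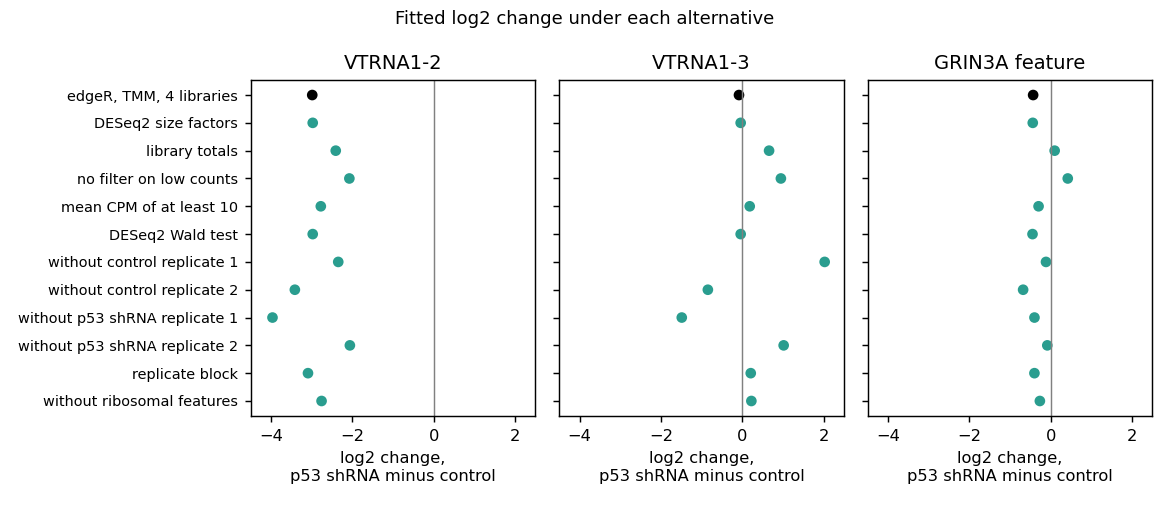
Each point is the fitted log2 change (p53 shRNA minus control) of VTRNA1-2, VTRNA1-3 or the GRIN3A feature, in black for the main test and in green for each alternative. VTRNA1-2 lies between -3.96 and -2.06 throughout, while VTRNA1-3 runs from -1.49 to 2.03 across the line at 0.

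Other small RNAs of RNA polymerase III did not all share the pattern of VTRNA1-2. Of 18 genes listed, 5 had a tested feature, and 0 of their 6 features passed edgeR's adjusted threshold, and at an unadjusted p under 0.05 the split was 2 lower, 0 higher, where 7.81% of all features were lower. RNY1, a Y RNA that binds Ro60, had control counts of 7803 and 11602 and p53 shRNA counts of 977 and 1251 (log2 change -4.70, SE 0.31, edgeR adjusted p = 0.122). RNY3, another Y RNA, had 129 and 118 against 61 and 26 counts (-3.21, SE 0.57, edgeR adjusted p = 0.257). Both p53 shRNA libraries were below both controls for these 2 genes, as for VTRNA1-2 and 18.6% of all features.

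RNY4 had control counts of 11 and 1 and p53 shRNA counts of 127 and 12. RNU6-7, a copy of the spliceosomal U6 RNA, had 12 and 9 against 32 and 7 counts. The positions of 5S ribosomal RNA had 109953 and 62323 counts in the control libraries and 653701 and 82727 in the p53 shRNA libraries. As shares of all counts the groups overlapped for these 3. Of the genes without a tested feature, RN7SL1, RN7SL2, RN7SK, RPPH1 and BCYRN1 had 0 bases of their own, and RNY5, RNU6-1, RNU6-2, RNU6-8 and RNU6-9 had no feature by name. RN7SL3 and RMRP had bases of their own and 0 counts, and RNU6ATAC had 0 to 6 counts per library. Within a library, VTRNA1-2 had 1.62 and 0.646 counts for each count of RNY1 in the control libraries, against 7.28 and 1.40 in the p53 shRNA libraries, so that this ratio overlapped between the groups. For VTRNA1-3 the same ratio was 0.225 and 0.0256 in the control libraries, against 6.52 and 0.834 in the p53 shRNA libraries, without overlap. RNY1 itself was lower without overlap, while the groups overlapped for VTRNA1-3 itself. How many other features separate by their ratio to RNY1 was not tested.

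The profile over the 4 libraries was compared with 702 other named features of at least 100 counts, by the root mean square difference of centred log2 CPM. These values come from the same 4 libraries and share their depth and scaling, and they are a description. Nearest to VTRNA1-2 was SNORD67, a box C/D snoRNA, at 0.215, where the median over all 702 was 2.0. SNORD67 had control counts of 3440 and 2949 and p53 shRNA counts of 2102 and 483. The lncRNA-typed features over AC051619.8 and AC051619.7 followed at 0.231 and 0.276.

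Nearest to VTRNA1-3 was SNORA48, a box H/ACA snoRNA, at 0.149, against a median of 1.6. SNORA48 had control counts of 205 and 33 and p53 shRNA counts of 802 and 97. A Y RNA copy that GENCODE names by its family alone (0.283) and a lncRNA-typed feature in WRAP73 (0.387) came next. The 2 vault RNA genes, separated by 7144 bases, had different nearest features, which their differing profiles above already imply.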

How the data were processed

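Small RNA of vesicles was sequenced in 4 libraries, 2 per group. The deposited values are counts, whole reads per RNAcentral feature that are not normalized, with a deposited annotation of feature types. BWA 0.7.17, bcl2fastq 2.19, Subread 1.6.3 and the build GRCh38 are named per the submitters' processing notes. Counting options are not given in the sources used here. No count column belonged to another sample. The members and lists were chosen with earlier results of these data known.

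A feature took the name of the GENCODE 29 gene with exons over at least 50% of it (bedtools 2.31.1). RefSeq genes of the same build gave ribosomal positions. Features were tested with edgeR 4.0.16 (quasi-likelihood, TMM, filter on low counts, Benjamini-Hochberg over all features, R 4.3.3). The test was also run on simulated counts, and the outcome is not reported here, so the changes it could detect with 2 against 2 are not stated. The SE beside a log2 change comes from the variances of log2 CPM (prior count 2) within the groups. The change itself is that of the edgeR fit, so this SE describes the spread among libraries and not the error of the fitted value. The SE of the ratio difference comes from the variances of the log2 ratios within the groups. Shares have 95% Wilson intervals, which cover counting error only. Two-sided exact permutation tests over libraries (scipy 1.17.1) were run on shares and ratios. Alternatives were library totals, DESeq2 1.42.0 size factors, 2 other filters, the DESeq2 Wald test, a replicate block, each library left out, counts outside ribosomal genes, other length corrections and a fit without ribosomal features, which was chosen after seeing the data. All vault RNA features were named, with the 3 nearest profiles for each one tested with at least 100 counts, and listed RNA polymerase III genes with a tested feature.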

Additional observations from a re-analysis of the deposited data

How the results depend on the processing

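VTRNA1-2 kept its direction in all 11 alternatives of the fit. Its share and its ratio to VTRNA1-3 also kept theirs, but most of those alternatives could not have reversed them. Leaving out 1 library cannot reverse groups that do not overlap. Length corrections leave the ratio unchanged, since both genes have 89 bases, all their own. The share difference outside ribosomal gene positions, which could have reversed, was -1.83 percentage points. The labels give both groups replicates 1 and 2 but do not say that a number marks a shared batch. Deviations of same-numbered libraries correlated across features (r = 0.395), which with 2 pairs is a hint from the data and not the design. With the replicate number as a block the log2 change of VTRNA1-2 was -3.09 with an edgeR adjusted p of 0.00994, against 0.119 to 0.979 in the other alternatives, and 103 features were called (12 higher, 91 lower). The DESeq2 Wald test called 29 (0 higher, 29 lower) and the fit without ribosomal features 20 (1 higher, 19 lower), against 0 in the main test. The cause was not tested.

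VTRNA1-3 was above 0 in 7 of 11 alternatives: its log2 change was 0.66 on library totals, 0.95 with no filter, 0.18 at a mean CPM of at least 10, 0.21 with the replicate block and 0.22 without ribosomal features, where the median of all features was 0.49, 1.38, 0.16, 0.13 and 0.15. The GRIN3A feature was at 0.10 on library totals and 0.42 with no filter. With a library left out, log2 changes ran from -3.96 to -2.06 for VTRNA1-2, from -1.49 to 2.03 for VTRNA1-3 and from -0.68 to -0.09 for the GRIN3A feature. The share of VTRNA1-3 then differed by -0.0418 to 0.148 percentage points, and its log2 ratio to the GRIN3A feature by -0.54 to 1.76 (0.61 with all libraries).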
